A study of Apis mellifera with 6 samples.

Results

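In order to describe the accessible chromatin around the sex determination genes of the honey bee (Apis mellifera), ATAC-seq peaks were collected over complementary sex determiner (Csd) and feminizer (Fem). In ATAC-seq, the transposase Tn5 inserts sequencing adapters where DNA is free of nucleosomes. The members are all peaks whose summit lies between 11769679 and 11802256 on LG3 of the assembly Amel HAv3.1, a stretch of 32578 bp that holds Csd (11771679 to 11781139), Fem (11792751 to 11800256), the 11611 bp between them and 2000 bp on either side. They were chosen by position and not by any measured value. This gave 28 of the 204513 peaks in the 6 lists, which merged into 10 sites, against 60136 merged sites in the whole series. Sites are named A to J in order of position. Central brains without optic lobes were taken from queens and workers, which are diploid females, and from drones, which are haploid males. All bees were newly eclosed adult offspring of the same mother queen. Each phenotype has 2 libraries, each made from a pool of brains, so differences between replicates are differences between pools.

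Csd is the primary signal of sex in the honey bee. Bees that carry different Csd alleles develop as females, whereas those with a single allele, such as haploid drones, develop as males. Csd and Fem encode related proteins rich in arginine and serine. In females Csd directs the female splice form of Fem transcripts, Fem maintains its own female splicing, and the female Fem protein directs the female splicing of doublesex. The pathway acts from early development onwards. Accessibility at a gene is not a measure of its transcription or splicing.

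The lists held from 28026 to 39158 peaks, and the genome-wide background was between 1.04 and 1.47 fragments per base. At that background the lowest summit called had 7 fragments for queens and drone replicate 1, and 6 for workers and drone replicate 2. The peak names of the 4 female lists carry 1 shared run label, which the 2 drone lists lack. Sex and run label therefore cannot be told apart. Of the marker genes, the synaptic genes Syt1 and brp had a summit within 200 bp of a gene end in all 6 libraries. The royal jelly protein genes Mrjp1, Mrjp2 and Mrjp3 mark the hypopharyngeal gland, and the yolk protein gene Vg the fat body. Each of these had such a summit in 0 of 6 libraries. With 2000 bp on either side, Mrjp1 and Mrjp2 each had 1 summit in worker replicate 1 and Vg had 1 in worker replicate 2, with 0 in queens and drones, and the part of such tissue in the worker values was not tested.

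**Figure D1:**
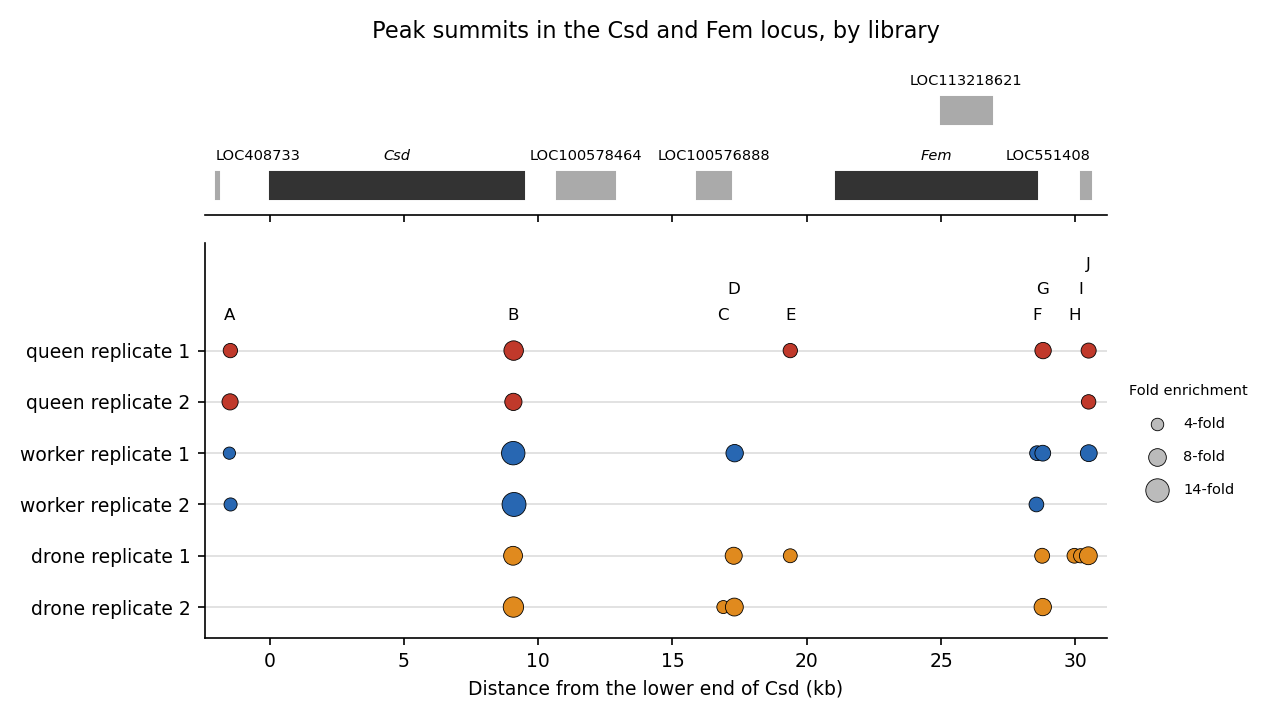
Peak summits (circles) of each library against the distance from the lower end of Csd in kb, with circle area in proportion to fold enrichment, queens in red, workers in blue and drones in orange. Dark bars are Csd and Fem, grey bars the other annotated genes (those at both edges are cut), and letters name the sites. Site B, inside Csd, has a summit in all 6 libraries, and the rest of the Csd and Fem bodies is empty apart from site F.

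Most of both gene bodies held no peak. The only site in the body of Csd was site B (11780702 to 11780839), with summits 359 to 395 bp inside the higher-numbered end of the gene, and the only one in the body of Fem was site F (11800209 to 11800303), with summits 5 to 29 bp inside its higher-numbered end. The gene table used here gives no strand, so it is not stated which end holds the start of transcription, nor whether a site is exonic or intronic. From site A to site B, 10440 bp were without a call in any library, a stretch that covers all of Csd below site B. Of the 59027 stretches between neighbouring sites on the placed chromosomes, 6.6% were at least as long, and the median was 1839 bp. From site E to site F, 9080 bp were without a call, including nearly all of Fem and the pseudogene LOC113218621 within it, and 8.6% of stretches were at least as long. From site B to site C, 7710 bp were empty, including the protein-coding gene LOC100578464, and 11.4% of stretches were at least as long.

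The remaining sites lay outside the 2 genes. Site A (11770162 to 11770261) was between LOC408733 and Csd, with summits 1451 to 1495 bp below the lower-numbered end of Csd. It lay 371 bp past LOC408733 and 1418 bp below Csd, and was thus nearer to LOC408733. Site C (11788550 to 11788631) overlapped the pseudogene LOC100576888, site D (11788922 to 11789040) was 59 bp past it and site E (11790998 to 11791128) was 1623 bp below Fem. Site G (11800422 to 11800526) was 166 bp past the higher-numbered end of Fem. Site H (11801598 to 11801686) lay 185 bp below the protein-coding gene LOC551408, whereas sites I (11801849 to 11801924) and J (11802099 to 11802219) overlapped that gene. Sites H, I and J, although within 2000 bp of Fem, were thus nearer to LOC551408 than to Fem. Where a site was called in several libraries, its summits lay within 16 to 44 bp of each other, apart from site E with the same summit in both.

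The 28 peaks were of middle strength within their own lists. Fold enrichment, the summit pileup relative to the local background within a library, ranged from 3.85 to 14.7 with a median of 6.54. Summits held from 7 to 29 fragments, with a median of 14.5. As a percentile of −log10 q within its own list, where 100 is the strongest peak, the members ranged from 2.45 to 87.9 with a median of 51.5. In total 15 of the 28 lay above the median of their list and 0 in the strongest 10%. The peaks were narrow, from 73 to 138 bp, all under the median width of their lists (136 to 145 bp).

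**Figure D2:**
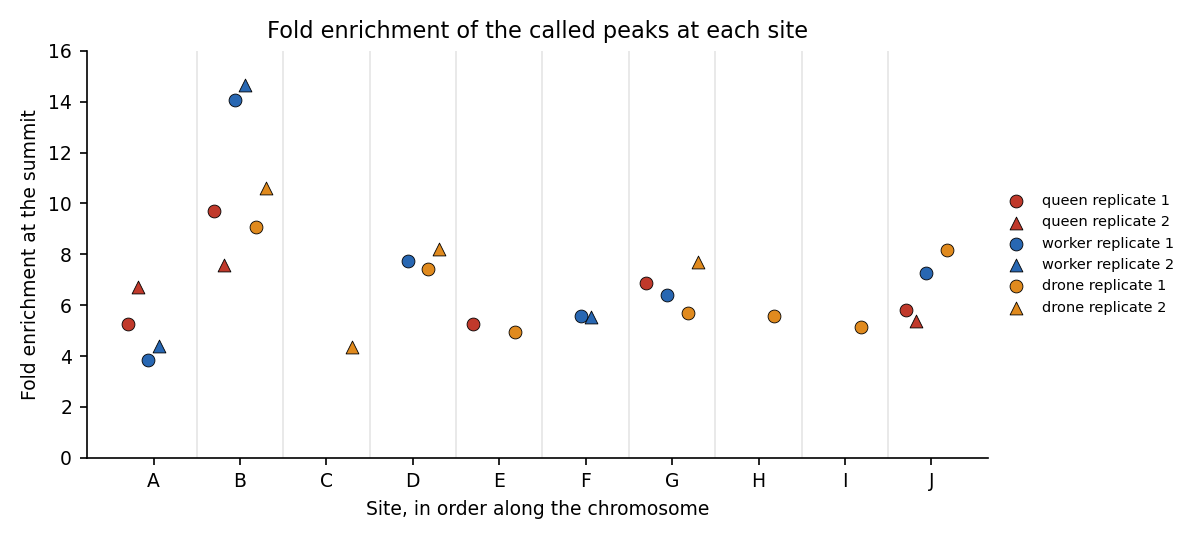
Fold enrichment at the summit of each called peak, by site in order along the chromosome. Colours are phenotypes, circles replicate 1 and triangles replicate 2, and a missing symbol is a missing call. Site B in the worker libraries, at 14.05 and 14.67-fold, lies above every other peak.

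Site B, the site inside Csd, was the strongest in each library. It was the only one called in all 6 libraries, 1 of 10 sites in the locus, against 27.4% of all sites in the series. That share comes from merging all peaks, by which site J too was part of a site called in all 6 libraries. At site B, queen replicates 1 and 2 had 9.71 and 7.59-fold enrichment, worker replicates 14.05 and 14.67, and drone replicates 9.09 and 10.6. Both worker values lay above all others, and queens and drones overlapped. How many other sites have this order was not counted. Queen summits held 23 and 16 fragments, worker summits 28 and 29, and each drone summit 21. Expressed over the genome-wide background of each library, the queen mean was 14.3 ± 1.94, the worker mean 27.2 ± 1.04 and the drone mean 17.1 ± 3.29 (SD, n = 2 each). Within the lists, its percentile was 78.3 and 62.2 for queens, 87.9 and 87.8 for workers, and 69.95 and 78.3 for drones.

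To test whether site B differed between phenotypes, log2 fold enrichment was compared across the 16503 sites called in all 6 libraries with limma, after subtraction of each library's median. On this centred log2 scale queens were at 0.44 and 0.08, workers at 0.72 and 0.70, and drones at 0.07 and 0.41. The difference of workers minus queens was 0.45 ± 0.21 (standard error, 95% interval 0.0042 to 0.893), with both worker libraries above both queen libraries. The limma p was 0.0481 before and 0.383 after Benjamini-Hochberg adjustment, so the difference did not pass the threshold of 0.05. In the same comparison 12.9% of all tested sites had an unadjusted p under 0.05. The library medians themselves differed by 0.29 (log2) between workers and queens. Without centring, the difference at site B was 0.74 with an adjusted p of 0.0612. The difference of drones minus the mean of both female phenotypes was -0.25 ± 0.18 (95% interval -0.63 to 0.14, limma adjusted p = 0.433), a difference within the spread, and drone replicate 2 lay above queen replicate 2. In the same fit 5.55% of sites were called between drones and females (380 higher and 536 lower in drones, or 448 and 280 without centring), and 0.0909% between workers and queens (4 higher and 11 lower in workers, or 389 and 13 without centring).

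**Figure D3:**
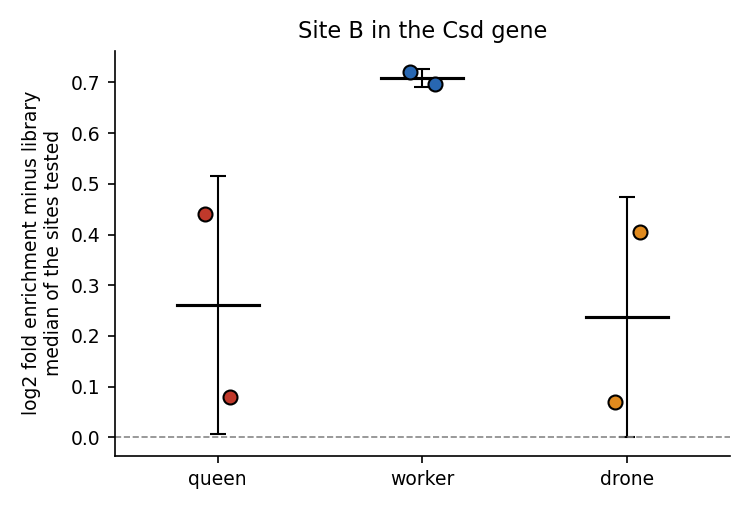
log2 fold enrichment at site B in Csd minus the library median over the 16503 sites tested, by phenotype. Points are libraries, horizontal bars means and error bars SD (n = 2 each), and the dashed line at 0 is the library median. Worker libraries, at 0.72 and 0.70, lie above the others, a difference that did not pass the adjusted threshold.

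Site A, between LOC408733 and Csd, was called in both queen and both worker libraries but in no drone library. It was 1 of the 10 sites with this pattern, which 1.96% of all sites share. Queen replicates had 5.26 and 6.70-fold enrichment there and worker replicates 3.85 and 4.40-fold. The summits held 12 and 14 fragments in queens and 7 and 8 in workers. Over the genome-wide background of each library, which was higher in queens, these were 8.16 and 11.3 in queens and 6.60 and 7.69 in workers. The mean fold enrichment was 5.98 ± 1.02 in queens and 4.12 ± 0.394 in workers (SD, n = 2 each). This difference was not tested, since the site was not called in all libraries. Queen peaks were at percentile 32.4 and 52.5 of their lists and worker peaks at 2.45 and 10.5, among the weakest called. For comparison, peaks at all sites with this pattern had median percentiles of 35.2 and 35.0 in the queen lists and 40.1 and 48.5 in the worker lists. The worker calls were thus only 1 and 2 fragments above the lowest pileup called at the background of those libraries. With a −log10 q of at least 5, or with the 28026 strongest peaks of each list, both worker calls were lost, and site A was called in the 2 queen libraries only. The next drone calls were 10441 and 10449 bp above site A, at site B, and 1663 and 6227 bp below it. A missing call does not give the level in drones, where a summit of up to 6 fragments (replicate 1) or 5 fragments (replicate 2) at the genome-wide background lay under the lowest pileup called.

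**Figure D4:**
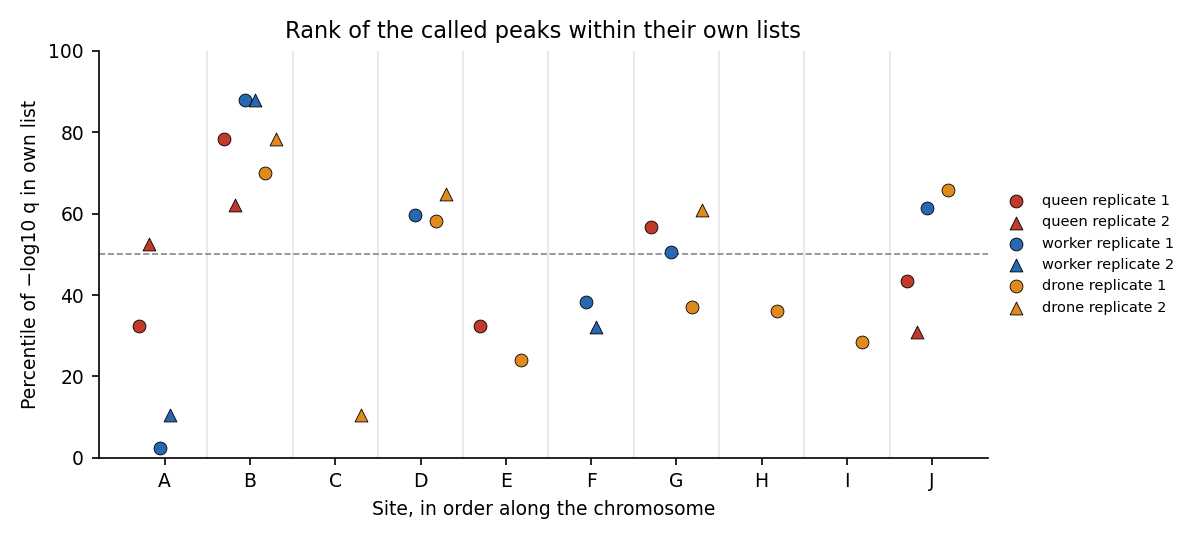
Percentile of −log10 q of each called peak within its own list (100 is the strongest), by site. Colours are phenotypes, circles replicate 1 and triangles replicate 2, and the dashed line is the list median. Site B lies between 62.2 and 87.9, whereas the worker calls at site A are at 2.45 and 10.5.

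The 2 sites at the higher-numbered end of Fem lay 118 bp apart and were called in different libraries. Site F, which spans the annotated end, was called in both worker libraries and no other, as were 3.51% of all sites. Fold enrichment there was 5.58 and 5.55, with 13 and 11 fragments, at percentile 38.3 and 32.0. Site G, just outside the gene, was called in queen replicate 1, worker replicate 1 and both drone libraries, with 6.88, 6.39, 5.71 and 7.71-fold enrichment, respectively. It was not called in queen replicate 2 or worker replicate 2, so the female replicates disagreed while both drone libraries had it. The call of drone replicate 1 was the weakest of these. How many other sites have the call pattern of site G was not counted. Worker replicate 1 had both sites, worker replicate 2 had F alone, and queen replicate 2 had neither. Every library but queen replicate 2 thus had at least 1 of the 2 sites at this end of Fem.

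Between the genes, site D was called in both drone libraries and in worker replicate 1, and in neither queen library. Its fold enrichment of 7.44 and 8.19 in drones and 7.75 in the worker library made it the strongest peak outside site B in drone replicate 2, with 17, 16 and 15 fragments, respectively. The worker value lay between those of the drone libraries. How many other sites have the call pattern of site D was not counted. Site E was called in queen replicate 1 (5.26-fold) and drone replicate 1 (4.96-fold) only, with 12 and 11 fragments. Site C was called in drone replicate 2 only, with 4.34-fold enrichment and 8 fragments, and sites H and I in drone replicate 1 only, with 5.59 and 5.15-fold enrichment and 13 and 12 fragments. Sites called in 1 library were thus 3 of 10, against 30.1% of all sites. All 3 were in drones, H and I in the same library. The part of drone lists among all such sites was not counted. None of the 10 was called in both drone libraries and no female library (4.02% of all sites).

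Site J, near the lower-numbered end of LOC551408, was called in both queen libraries (5.81 and 5.36-fold), worker replicate 1 (7.28-fold) and drone replicate 1 (8.18-fold). In worker replicate 2 a single peak of 448 bp (11802117 to 11802564) covered this position, but its summit lay 168 bp past the edge of the locus, so it is not a member. The other 5 libraries also had a summit 152 to 172 bp past the edge. When peaks past the edge were merged in, site J became part of a wider site that all 6 libraries had. This raised the number of sites called in every library from 1 to 2. The sites of the whole series were merged in this way. Limma took the highest peak of each library at the wider site. In queen replicate 1 and drone replicate 1 this was the site J peak. In the other libraries the highest peak had its summit past the edge, so the comparison mixes 2 positions. In limma the wider site differed by 0.0305 (log2, drones minus females) and 0.193 (workers minus queens). It passed the adjusted threshold in neither comparison.

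Replicates of a phenotype often differed, in the locus as in the whole series. Both replicates of every phenotype had the same call at 3 of the 10 sites (A, B and F), against 40.1% of all sites. The shares over all sites come from merging all peaks. Merged in that way, site J also belonged to a site with the same call in every library. In the locus 6 sites (A, B, D, F, G and J) were called in both libraries of at least 1 phenotype, against 61% of all sites. Queen libraries held 5 and 3 summits in the locus, worker libraries 6 and 3 and drone libraries 7 and 4. Replicate 1 was higher in each phenotype and the phenotypes overlapped. Queens averaged 4 ± 1.41 summits, workers 4.5 ± 2.12 and drones 5.5 ± 2.12 (SD, n = 2 each), and the exact permutation test gave p = 0.733 (adjusted p = 0.733, over 3 tests). There are 15 ways to split the libraries into 3 pairs, so p could not go below 0.0667. Relative to list length, queens had 13.5 ± 4.01, workers 12.04 ± 6.20 and drones 15.4 ± 4.05 summits per 100000, for which the exact permutation test gave the same p. Without worker replicate 1 the worker value was 7.66. The bases in member peaks, their widths summed per library, came to 407 ± 199, 449 ± 204 and 551 ± 257, respectively (SD, n = 2). The exact permutation test gave p = 0.667 (adjusted p = 0.733), and queens had 266 bp without queen replicate 1. The worker replicate 2 peak that reaches into the locus at site J is not in these sums, since its summit lay outside.

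**Figure D5:**
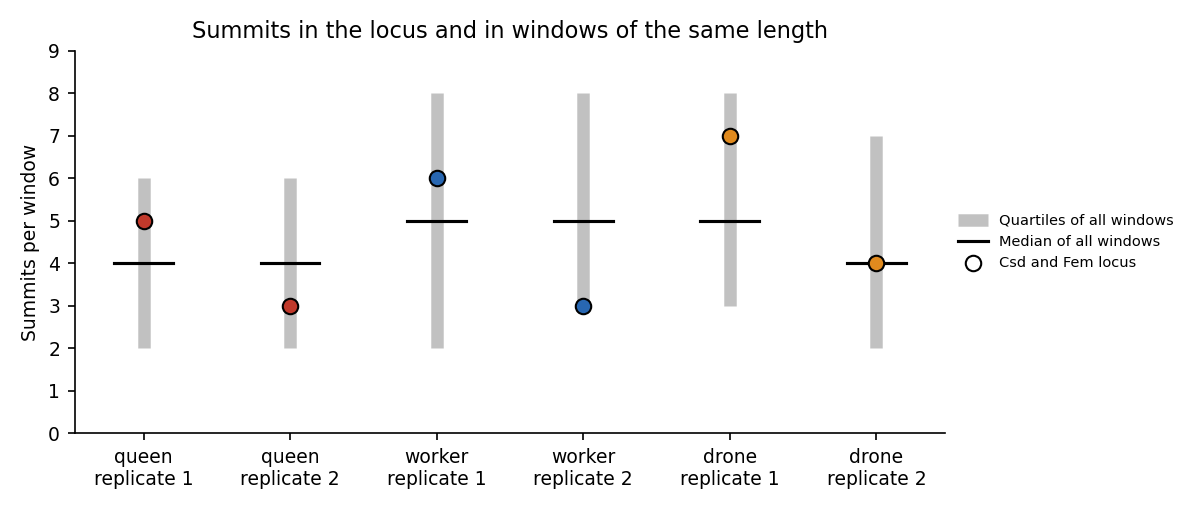
Summits in the Csd and Fem locus (circles, coloured by phenotype) and in 6768 consecutive windows of the same length on the placed chromosomes (black lines, medians, and grey bars, lower to upper quartiles), by library. All 6 values, from 3 to 7, lie within the quartiles of their library.

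The locus was neither dense nor sparse in summits for its length. In 6768 windows of 32578 bp, the median was 4 summits for queens and drone replicate 2, and 5 otherwise. The locus lay above that median in queen replicate 1, worker replicate 1 and drone replicate 1, at it in drone replicate 2 and below it in queen replicate 2 and worker replicate 2. Counted by gene, with 2000 bp on either side, Csd had 2 summits per female library and 1 per drone library, a total of 10. The summit that drones lacked was that of site A, which lies nearer to LOC408733 than to Csd. In 1026 genes of similar length (0.8 to 1.25 times) the median total was 15, and 31.3% had as few as Csd. Queens and workers each had 3 and 1 summits at Fem and drones 5 and 1, a total of 14, against a median of 13 in 1273 genes of similar length. Of the 12255 genes on placed chromosomes, 21 others had the same summits in each library as Csd and 0 the same as Fem.

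The other genes of the pathway were looked at in the same way. Of 9 genes listed, 3 were matched by symbol (Dsx, tra2 and Snf), and the other 6 (fru, Sxl, ix, vir, fl(2)d and dsf) were not analysed here. Dsx, the doublesex gene whose male and female splice forms act at the end of the cascade, is 91468 bp long (LG5, 3529523 to 3620990). Queens had 12 and 10 summits there, workers 14 and 12, and drones 15 and 13, with overlapping phenotypes. Together these made 22 sites, and every library had 9 of them. In limma, 0 of these 9 passed the adjusted threshold in either comparison. Both drone libraries but no female library had 2 of the 22 sites, against 4.02% of all sites, and the reverse pattern was found at 0, against 1.96%. The first, at 3530380 to 3530470, had 5.17 and 5.27-fold enrichment and 22 and 18 fragments in drone replicates 1 and 2. The second, at 3573035 to 3573203, had 6.98 and 4.72-fold enrichment and 21 and 11 fragments.

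The gene tra2, known in Drosophila as the splicing partner of transformer, the counterpart of Fem, had 4 and 3 summits in queens, 4 in each worker library and 3 in each drone library. All 3 of its sites were called in all 6 libraries, and 0 of 3 passed the adjusted limma threshold. Snf, the counterpart of the Drosophila splicing factor sans fille, had 1 summit in each queen library, 3 and 2 in workers and 2 in each drone library. Both worker and both drone libraries lay above the queen libraries by 1 or 2 summits, in lists that were also longer. How many other genes have this order was not counted. Of the 3 sites of Snf, 1 was called in all 6 libraries and did not pass the threshold in either comparison. Thus 0 of the 13 tested sites of Dsx, tra2 and Snf were called, against the 5.55% and 0.0909% of all tested sites given above. Before adjustment, limma p was under 0.05 at 0 of them between drones and females, against 23.6% of all tested sites, and at 1, a Dsx site, between workers and queens, against 12.9%.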

How the data were processed

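Per the study's methods, the authors aligned reads with BWA 0.7.17 to HAv3.1, split them by fragment length and called peaks with MACS2. There is 1 deposited list for each library, named by the authors as that of nucleosome-free fragments, and whether each was called from its own library alone is not stated in so many words. Csd alleles were not told apart, since there is 1 reference sequence. The deposited lists give for each peak a fold enrichment (a ratio to the local background), a −log10 p-value, a −log10 q-value and a score. Treatment of duplicates is not given in the sources used here.

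Summit fragments and backgrounds were solved from fold and p as whole numbers (within 5% of a step, 100% of peaks), assuming a pseudocount of 1. Peaks overlapping by at least 1 bp were merged. For the locus only its members were merged with each other, and for the whole series all peaks were. Sites called in all 6 libraries were tested with limma 3.58.1 in R 4.3.3 on log2 fold enrichment of the highest peak (no pseudocount, no covariate). In simulated data for drones against females (16503 sites), 55% of changes of 1 and 94% of changes of 2 (log2) were recovered. The changes were planted as rises in drones at a small part of the sites, with independent normal noise. Workers against queens were not simulated. Library totals were compared by exact permutation tests without direction. The gene table is RefSeq's for the same assembly. No genome or protein sequence was used here. All sites of the locus are named. Sites called in both libraries of a phenotype are described singly. Of the 10 marker genes listed, elav, nSyb, repo and Mhc were not analysed here. Members, lists and tests were chosen with earlier results of these data known. Where the study's read-count model needs reads, the lists were compared instead.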

Additional observations from a re-analysis of the deposited data

How the results depend on the processing

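Of 154 alternative values, 138 stayed on the same side of the threshold, within the replicate spread or within a factor of 1.5 for counts, and 16 did not. Without the flanks, the locus held 1.5 summits in queens and 3 in drones on average. The count of sites called in all female and no drone libraries went from 1 to 0 with a −log10 q of at least 5 and to 0 at equal list length, where fewer peaks remain by construction. Merging peaks past the edge, as was done for the sites of the whole series, gave 2 sites called in every library. This alternative for the locus was chosen after seeing the data. For sites called between drones and females in limma, fragments at the summit in place of fold gave 2010 in place of 916, and leaving out 1 replicate gave 83 to 782 (83 and 93 without drone replicate 2 and 1, 321 and 400 without queen replicate 2 and 1). For workers against queens, 15 became 402 without centring, 191 with fragments, and 0 to 12 with 1 replicate left out (0 without either queen library or worker replicate 2, 8 without worker replicate 1). At site B the drone difference ranged from -0.39 to -0.07 and the worker difference from 0.26 to 0.64 with a replicate left out, with limma adjusted p from 0.353 to 0.905 and from 0.0612 to 0.794 over all alternatives. Where a phenotype kept 1 library, it was assumed to vary like the others. The cause of these moves was not tested. With a replicate block the exact p was 0.333 for summits, 0.333 per 100000 and 0.167 for bases (smallest possible 0.167), the differences at site B were -0.25 and 0.45, and 905 and 17 sites were called. With this block, site B still passed the adjusted limma threshold in neither comparison. Deviations of libraries with the same number had correlations of 0.00794, -0.00487 and 0.0119, and the numbers were not taken as pairs. Without each replicate in turn, the exact p of the 3 totals ranged from 0.467 to 1, and the mean summits from 3 to 5 (queens), 3 to 6 (workers) and 4 to 7 (drones), those per 100000 from 10.7 to 16.4, 7.66 to 16.4 and 12.5 to 18.3, and the bases from 266 to 548, 304 to 593 and 369 to 732. Depth limits what can be said of sites with few fragments.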
